A study of Mus musculus with 2 samples.

Results

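The genes described here encode the Fos and Jun proteins, the core of the transcription factor AP-1, and were taken by symbol from a table of 16040 genes. All 7 were found: Fos, Fosb, Fosl1 and Fosl2 of the Fos family, and Jun, Junb and Jund of the Jun family. They were measured in sorted mouse lung fibroblasts 14 days after saline or bleomycin was given into the trachea. Bleomycin damages DNA and is a standard means of causing lung fibrosis in mice. Both groups came from Col1a2-EGFP mice, in which sequences of the type 1 collagen gene Col1a2 drive a green fluorescent reporter. Lungs were digested with collagenase, dispase and DNase, and cells that were positive for the reporter and negative for lineage markers were sorted. There was 1 library per group, each from the fibroblasts of 3 mice, read by SAGE, a method that counts 1 short tag near the 3′ end of a transcript. The sources used here name neither the lineage markers nor the age and sex of the mice.

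AP-1 is a dimer held together by leucine zippers. Jun proteins pair with each other or with Fos proteins, whereas Fos proteins need a Jun partner to bind DNA. Fos, Fosb, Jun and Junb are immediate early genes, whose transcripts appear within minutes of growth factors, stress or wounding and are short-lived. They are also among the genes known to be induced when tissue is digested into single cells. Fosl1 and Fosl2 encode Fra-1 and Fra-2, which lack the strong activation domain of Fos, and overexpression of Fra-2 in mice is known to cause lung fibrosis. Jund is expressed more steadily than its relatives in many cells.

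The upstream sequences of Fos, Jun and Junb are shown because these genes carried most of the counts of both families, and control at their promoters is a textbook case of rapid induction. Each is the 250 bases before the transcript start in RefSeq (build GRCm38.p6), written in the direction of the gene. They lie at chr12:85473640-85473889 on the plus strand for Fos, chr4:95052223-95052472 on the minus strand for Jun and chr8:84978749-84978998 on the minus strand for Junb. No annotated exon overlaps these windows. Capitals mark TGACG, TGACATCA and TATAAA.
Fos: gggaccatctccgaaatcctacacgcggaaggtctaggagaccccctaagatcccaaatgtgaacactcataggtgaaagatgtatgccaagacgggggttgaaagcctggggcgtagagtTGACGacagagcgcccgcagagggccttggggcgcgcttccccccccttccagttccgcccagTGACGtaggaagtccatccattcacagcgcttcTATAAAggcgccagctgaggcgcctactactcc
Jun: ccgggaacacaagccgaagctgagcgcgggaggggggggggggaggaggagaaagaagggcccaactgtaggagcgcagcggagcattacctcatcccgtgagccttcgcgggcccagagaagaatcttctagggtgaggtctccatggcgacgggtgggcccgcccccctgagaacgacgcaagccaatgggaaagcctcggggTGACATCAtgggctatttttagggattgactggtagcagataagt
Junb: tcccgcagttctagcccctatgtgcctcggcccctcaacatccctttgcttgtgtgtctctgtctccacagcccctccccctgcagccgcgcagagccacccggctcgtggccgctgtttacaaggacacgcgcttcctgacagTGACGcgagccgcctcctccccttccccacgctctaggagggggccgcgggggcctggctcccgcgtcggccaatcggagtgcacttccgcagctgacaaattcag

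RefSeq windows were matched for 6 of the 7 genes. The windows of Fosb and Fosl2 overlap annotated exons of the same gene, so they are not upstream sequence alone. TGACG, the 5-base core of cyclic AMP response elements, was searched on both strands and was present 2 times in the Fos window, from 129 and from 66 bases upstream of the start. It was present 1 time each in the windows of Fosb, from 60 bases upstream, and Junb, from 106 bases upstream. The windows of Fosl2, Jun and Jund did not hold these letters, and 17.8% of 32851 promoter windows of this length did. TGACATCA, a form of AP-1 site, was found in the Jun window alone of the 6, from 45 bases upstream, and in 2.93% of all windows. TATAAA was found 33 bases upstream in the Fos window, and in 12.4% of all windows. The full response element TGACGTCA, the AP-1 site TGACTCA and the CArG box of serum response factor were in none of the 6 windows and in 1.55%, 4.46% and 1.47% of all windows. Sequence more than 250 bases upstream was not searched, so these genes may hold such sites farther out. TGACG also lies within TGACGTCA. A match is a description of the letters and not a measurement of binding.

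The levels of the 7 genes differed widely within each library. SAGE yields about 1 tag per transcript, so levels of different genes were compared as CPM, the count scaled to library size, without division by length. In what follows, values given as a pair are those of the saline library first and of the bleomycin library second. Fos, the founding member, stood at 6863 CPM after saline (exact 95% Poisson interval 6709 to 7020) and at 3021 CPM after bleomycin (2918 to 3126). It ranked 9 among all genes after saline and 34 after bleomycin. In the saline library the order below Fos was Junb (2280 CPM), Jun (2005), Fosb (1454), Jund (416), Fosl2 (267) and Fosl1 (6.38), and no neighbouring intervals overlapped. In the bleomycin library Junb (1077 CPM) and Jun (1068) had overlapping intervals, and so did Fosl2 (232) and Jund (225). Fosb stood at 859 CPM and Fosl1 at 5.53 CPM there. The intervals cover counting error only, since no molecular identifiers are named and there is no replicate.

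**Figure D1:**
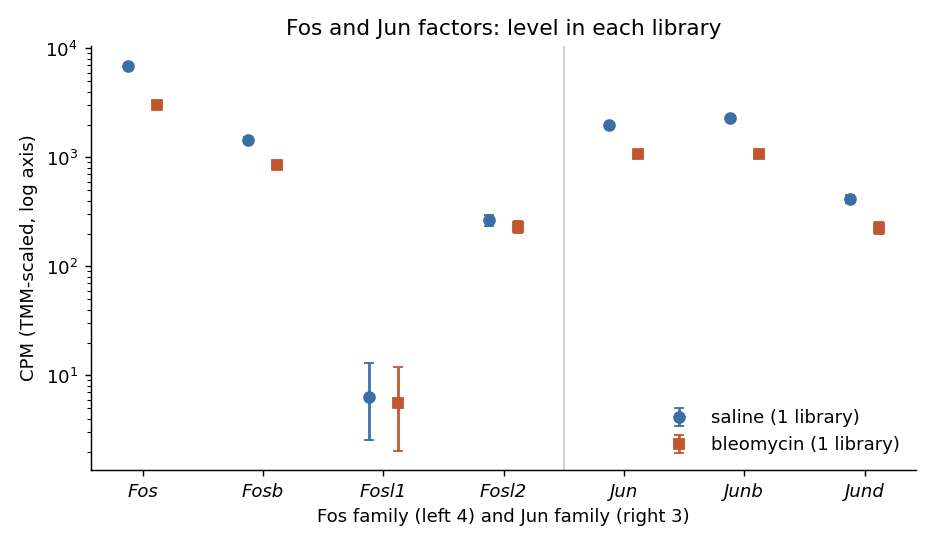
Level of each Fos and Jun gene in the saline library (circles) and the bleomycin library (squares), in CPM scaled by the trimmed mean of M values, on a log axis; bars are exact 95% Poisson intervals of 1 library each. Fos is at 6863 and 3021 CPM, and the intervals of Fosl1 and Fosl2 overlap between the libraries.

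The comparison of the bleomycin library with the saline library asks how AP-1 transcripts of lung fibroblasts differ during bleomycin-induced fibrosis. All 7 genes had lower levels in the bleomycin library, and 2 of them, Fos and Junb, were called lower. A call needed an adjusted p under 0.05 in a two-sided exact binomial test of the reads and a ratio of at least 2. By this rule 8.52% of the 9369 genes tested were called lower and 8.08% higher. The median log2 ratio was −0.88 over the 7 genes and 0.02 over all tested genes. Because each group is 1 library, the test compares these libraries and not the conditions, and no difference here has a replicate check.

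Within the Fos family the difference ran from Fos through Fosb to Fosl2. Fos had 7525 and 3275 counts, which is 2.27-fold lower (exact 95% interval 2.18 to 2.37). Fosb, a close relative of Fos, had 1594 and 931 counts, a level 1.69-fold lower (1.56 to 1.84). Its interval stayed below the required 2-fold, so it was not called, although its adjusted p was 9.34e-37 by the exact binomial test. Fosl2 had 293 and 252 counts, a ratio of 0.87 (0.732 to 1.03) whose interval holds 1. Fosl1 had 7 and 6 counts, and no difference was detectable at this depth, with a ratio of 0.867 (0.241 to 3.01). Fos and Fosb thus lay below their saline level by more than counting error, and the difference of Fosl1 and Fosl2 was within it.

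The 3 Jun genes lay close together in their ratios. Junb, which often restrains the activity of Jun, had 2500 and 1168 counts, which is 2.12-fold lower (1.97 to 2.27), with an adjusted p of 4.25e-104 by the exact binomial test. Jun, at 2198 and 1158 counts, was 1.88-fold lower (1.75 to 2.02). Jund, at 456 and 244 counts, was 1.85-fold lower (1.58 to 2.17). Junb lay just inside the required ratio and Jun just outside it. The intervals of Junb, Jun and Jund all include 2-fold, so the call alone does not set Junb apart from its relatives.

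**Figure D2:**
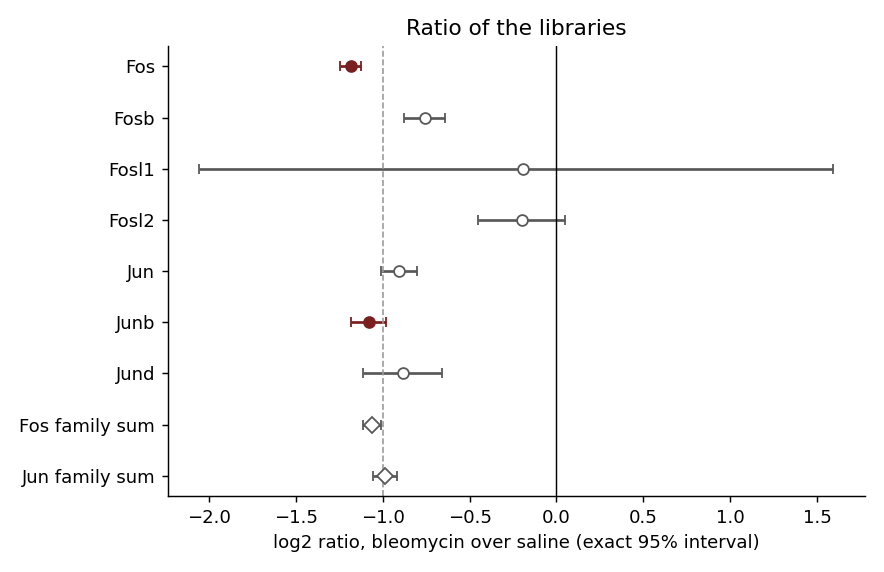
Log2 ratio of bleomycin over saline for each gene (circles) and for the summed counts of each family (diamonds), with exact 95% intervals; filled symbols are called lower, the dashed line marks the 2-fold limit and the solid line equal levels. Fos and Junb lie beyond the dashed line, Fosb, Jun and Jund between the lines, and the intervals of Fosl1 and Fosl2 cross equality.

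How many of the genes count as lower turned on the ratio required and on the error assumed between preparations. With no ratio required, 5 of 7 passed the adjusted p, Fos, Fosb, Jun, Junb and Jund, where 14.1% of all tested genes were lower. Abundant genes pass such a test more easily: among the 648 genes with at least 500 counts over both libraries, a limit chosen after the values were seen, 35.8% were lower with no ratio required and 10.8% were called lower. In the edgeR exact test with an assumed coefficient of variation of 0.2 between preparations, 3.55% of genes were called lower and none of the 7, with an adjusted p of 0.0619 for Fos and 0.107 for Junb. With 0.4 assumed, 0.0854% of genes and none of the 7 were called lower.

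**Figure D3:**
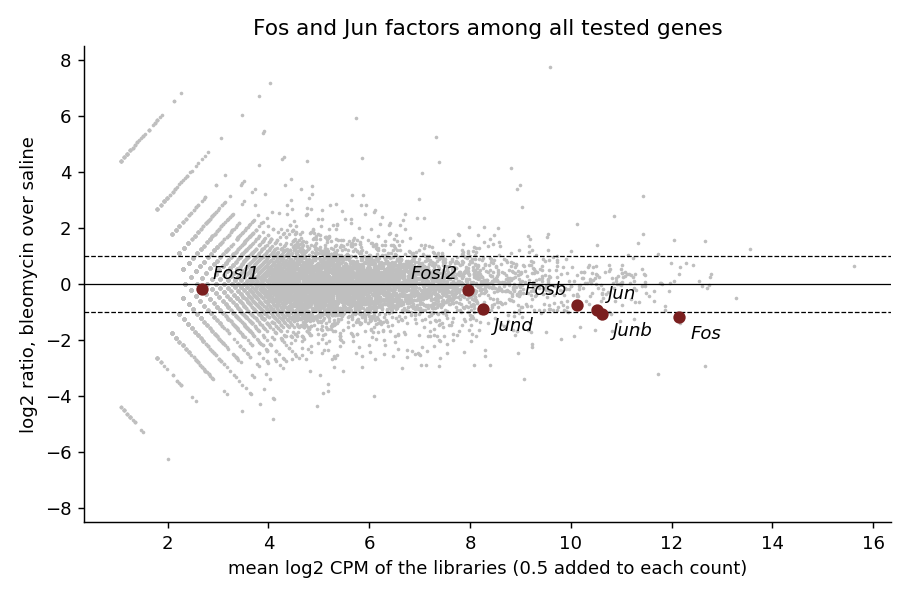
Log2 ratio of bleomycin over saline against the mean log2 CPM of the libraries, with 0.5 added to each count, for all 9369 tested genes (grey) and the 7 Fos and Jun genes (dark, named); dashed lines mark 2-fold. Fos, Junb, Jun and Fosb lie among the most abundant genes, and Fos and Junb lie just below the lower dashed line.

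Summed over its members, the Fos family had 9419 and 4464 counts, a ratio of 0.479 (0.462 to 0.497). The Jun family had 5154 and 2570 counts, a ratio of 0.504 (0.481 to 0.529). Together the 7 genes made up 1.35% of all counts after saline and 0.64% after bleomycin. There were 1.83 and 1.74 Fos family counts per Jun family count, a change of 0.95 (0.895 to 1.01) whose interval holds 1. The Fos family sum rests on Fos: without it, the ratio of the other 3 members was 0.635. The remaining members stood at 0.367 and 0.463 counts per Jun family count, a change of 1.26 (1.15 to 1.37).

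The make-up of the Fos family differed between the libraries. Fos gave 79.9% of the family's counts after saline (exact Clopper-Pearson 95% interval 79.1 to 80.7) and 73.4% after bleomycin (72.0 to 74.7). The share of Fosb was 16.9% (16.2 to 17.7) and 20.9% (19.7 to 22.1), and that of Fosl2 was 3.11% (2.77 to 3.48) and 5.65% (4.99 to 6.36). The larger shares of Fosb and Fosl2 in the bleomycin library went with lower counts of both, since Fos was lower still. The change in Fos counts per Fosb count was 0.745 (0.68 to 0.817). Per Fosl2 count there were 25.7 and 13.0 Fos counts, a change of 0.506 (0.424 to 0.604). The same change was 0.679 (0.561 to 0.823) for Fosb, 0.613 (0.508 to 0.739) for Jun, 0.543 (0.451 to 0.655) for Junb and 0.622 (0.491 to 0.788) for Jund. These comparisons within a library do not depend on how the libraries are scaled. They were among 13 pairs chosen after the values were seen, and their intervals are not adjusted for that number.

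In the Jun family, Junb and Jun together gave most of the counts in both libraries. Junb gave 48.5% of the counts after saline (47.1 to 49.9) and 45.4% after bleomycin (43.5 to 47.4). For Jun the shares were 42.6% (41.3 to 44.0) and 45.1% (43.1 to 47.0), and for Jund 8.85% (8.09 to 9.66) and 9.49% (8.39 to 10.7). The change in Jun counts per Junb count was 1.13 (1.02 to 1.247). For Jund per Jun it was 1.02 (0.852 to 1.21), which holds 1 but allows a difference of either sign.

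**Figure D4:**
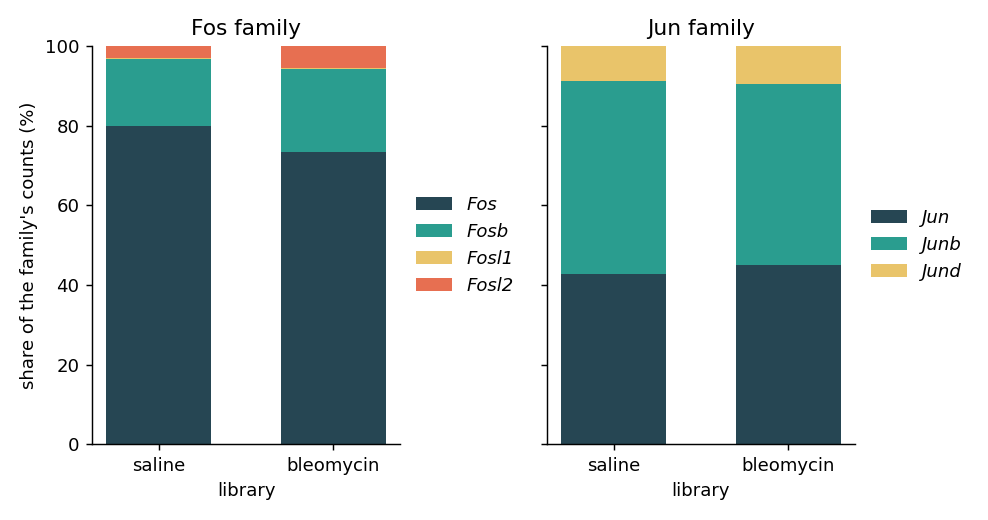
Share of each member in the summed counts of the Fos family (left) and the Jun family (right), in percent, for the saline and bleomycin libraries (1 each). The Fos segment is 79.9% after saline and 73.4% after bleomycin, and Fosl1 is too small to see.

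Among genes for proteins that dimerise with Fos and Jun, or with related zippers, 12 of 18 listed were tested. Of these, 4 were called lower and none higher, against 8.52% and 8.08% of all tested genes. The median log2 ratio of the 12 genes was −0.44. Atf3, a stress-induced factor that pairs with Jun, had 140 and 37 counts, a ratio of 0.267 (0.181 to 0.386). Maff, a small Maf protein, had 329 and 111 counts, a ratio of 0.341 (0.273 to 0.424). Atf4, the factor of the amino acid response, had 133 and 50 counts, a ratio of 0.38 (0.269 to 0.53). Nfe2l2, which encodes the oxidative stress factor Nrf2, had 29 and 11 counts, a ratio of 0.384 (0.173 to 0.791). Nfe2l2 lost its call with Bonferroni adjustment (adjusted p 1), and in the edgeR exact test with an assumed variation of 0.2 the adjusted p was 0.267 for Nfe2l2 and 0.0561 for Atf4. Mafk stood at 183 and 169 counts and Ddit3 at 182 and 133, and neither was called. All 3 Batf genes had 2 counts or fewer in each library.

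Transcripts of the kinases that activate AP-1 were not called in either direction, in 15 tested of 23 listed. Of all tested genes, 8.52% were called lower and 8.08% higher. The median log2 ratio of the kinases was −0.06. Mapk3, which encodes ERK1, had 279 and 287 counts, a ratio of 1.04 (0.879 to 1.23), and Map2k2, a kinase above it, had 117 and 153 counts, a ratio of 1.32 (1.03 to 1.7). Kinase activity was not measured.

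Of factors that act on the Fos and Jun promoters, 1 of 10 tested was called higher and 1 lower. These counts lay near the 8.08% and 8.52% of all tested genes. The median log2 ratio of the list was −0.14. Elk3, an Ets factor that joins serum response factor, had 20 and 61 counts, a level 3.08-fold higher (1.84 to 5.4). Creb1, which binds cyclic AMP response elements, had 50 and 23 counts, a ratio of 0.465 (0.271 to 0.777). Creb1 lost its call with a prior count of 5 (log2 ratio −0.96) and with Bonferroni adjustment (adjusted p 1). Both calls were lost in the edgeR exact test with an assumed variation of 0.2, with an adjusted p of 0.0605 for Elk3 and 0.291 for Creb1. Stat3 had 136 and 220 counts and Crem, a relative of Creb1, 175 and 103, and neither reached the required ratio.

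Genes for the turnover and repression of Fos and Jun were mostly not called, with 1 of 13 tested lower and none higher. Of all tested genes, 8.52% were called lower and 8.08% higher. The median log2 ratio of the list was 0.20, or −0.25 over 8 genes with a minimum of 50 counts. The called gene was Zfp36, which encodes tristetraprolin, a protein that speeds the decay of messages rich in A and U and is itself an immediate early gene. It had 3551 and 1097 counts, a ratio of 0.312 (0.292 to 0.334). Its relative Zfp36l1 had 795 and 545 counts, a ratio of 0.693 (0.621 to 0.774), short of the required 2-fold.

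Of 23 other immediate early genes tested, 5 were called lower and 2 higher, against 8.52% and 8.08% of all tested genes. The median log2 ratio of the list was −0.46. The median was −0.69 over 21 genes with a minimum of 50 counts. Egr1, a zinc finger factor induced through the same promoter elements as Fos, had 8106 and 3079 counts, a ratio of 0.384 (0.368 to 0.4). Nr4a1, an orphan nuclear receptor, had 1391 and 311 counts and the lowest ratio of the list at 0.226 (0.199 to 0.256). Ier2 had a ratio of 0.348 (0.32 to 0.379), Gadd45b, a stress sensor, 0.32 (0.282 to 0.361), and Nr4a3 0.347 (0.209 to 0.558). Nr4a3 lost its call in the edgeR exact test with an assumed variation of 0.2 (adjusted p 0.062). Sgk1, a kinase induced by serum and glucocorticoids, had 444 and 1514 counts, a level 3.45-fold higher (3.1 to 3.84). The other higher gene, Ctgf, a matricellular protein named after its values were seen, had 752 and 1669 counts. Cyr61, a relative of Ctgf, had 1524 and 755 counts, a ratio of 0.501, just outside the limit. Ier3 stood at 1398 and 1492 counts and was not called.

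Heat shock genes are induced with Fos and Jun in digested tissue. None of 14 tested was called lower and 1 was called higher, against 8.52% and 8.08% of all tested genes. The median log2 ratio was −0.07, and 9 of the 14 genes lay below 0. Dnajb4 was the lowest, at 400 and 219 counts, a ratio of 0.554 (0.467 to 0.654). The summed levels of the 14 genes were 15950 and 14749 CPM. Hspa1b had 4724 and 3909 counts, a ratio of 0.837 (0.802 to 0.873), and Hspa8 had 3174 and 3006. Hspa1a, at 1178 and 880 counts, had a ratio of 0.755 (0.692 to 0.825). In the other direction, Hspd1 had a ratio of 1.69 (1.32 to 2.17) and Hspe1 had 1.67 (1.47 to 1.89). The median thus covers differences in both directions. Hspa1a, Hspd1 and Hspe1 were named after their values were seen. Hsph1, a cochaperone, had 123 and 251 counts, a level 2.06-fold higher (1.66 to 2.58), and lost its call in the edgeR exact test with an assumed variation of 0.2 (adjusted p 0.17). Both libraries were digested before sorting, and the part of digestion in the levels of Fos and Jun was not tested.

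Of textbook targets of AP-1, 9 of 24 tested were called higher and none lower, against 8.08% and 8.52% of all tested genes, with a median log2 ratio of 0.75. They are targets known from many cell types, and each has other regulators. Timp1, an inhibitor of matrix metalloproteinases, had 163 and 1883 counts, a level 11.7-fold higher (9.95 to 13.8). The collagenase gene Mmp13 had 0 and 20 counts, which is 6.74-fold higher when the saline library is set at 3 counts. The exact lower limit of its ratio was 4.99. Ccnd1, cyclin D1, had 22 and 87 counts (interval of the ratio 2.48 to 6.71), and Cd44, a hyaluronan receptor, was 3.01-fold higher (2.42 to 3.76). Spp1 and Tgfb1 were also called, and so were Mt2, a metallothionein, and Hbegf, a ligand of the epidermal growth factor receptor, both named after their values were seen. Mmp2 stood at 2139 and 2563 counts and Vim, vimentin, at 1157 and 1532, and neither reached the required ratio. Nor did Mmp3, the protease stromelysin, at 843 and 487 counts, a ratio of 0.584 (0.521 to 0.654), or Ptgs2, a prostaglandin synthase, at 392 and 204 counts, a ratio of 0.526 (0.442 to 0.625), both lower in the bleomycin library. Mmp3 was named after its values were seen.

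**Figure D5:**
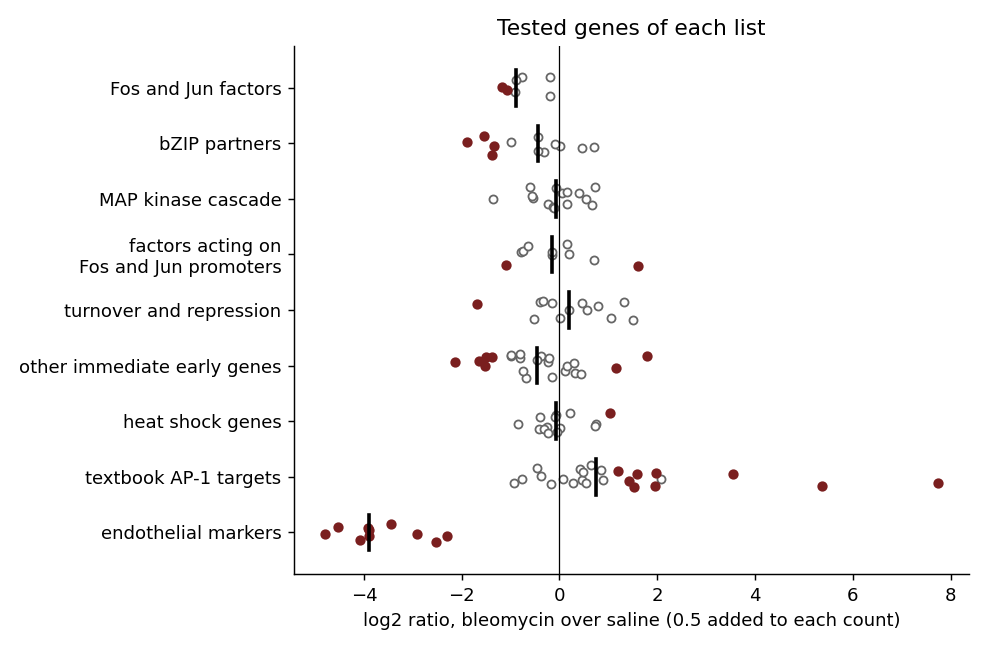
Log2 ratio of bleomycin over saline, with 0.5 added to each count, for the tested genes of each list; filled points are called, open points are not, and black bars are medians. The Fos and Jun factors lie below 0 with a median of −0.88, the textbook targets have a median of 0.75 and the endothelial markers one of −3.89.

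Genes with the most similar ratio were sought for each Fos and Jun gene with at least 50 counts, among tested genes whose summed count lay within 0.32 of its own on the log2 scale. With 2 libraries a pattern is a single ratio, so likeness is the absolute difference in log2 ratio and many genes share it by arithmetic. Of 12 genes as abundant as Fos, Egr1 was nearest, at a difference of 0.20, and the next, Gm3903, differed by 1.23. Among the 3 nearest to Junb, of 52 candidates, were 1200014J11Rik and Dpt, dermatopontin. Both were also among the 3 nearest to Jun, with Ddx5, an RNA helicase. Nfkbia, the inhibitor of NF-kappaB, Gm9780 and Pcolce were nearest to Fosb, and Cxx1a, Dnajb4 and Ptgs2 to Jund. Among 282 candidates, Gabarapl1, Glud1 and Dctn2 were nearest to Fosl2.

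Some markers of other cells differed between the libraries. For comparison, 8.52% of all tested genes were called lower and 8.08% higher. Of 12 endothelial markers, 10 were tested and all 10 were called lower, and their sums were 517 and 30.4 CPM. Egfl7, the most abundant, had 142 and 9 counts. Lung epithelial markers summed to 210 and 37.8 CPM, with Sftpc at 154 and 7 counts, while Cdh1 was at 0 in both and Epcam at 1 and 0. Of 10 leukocyte markers in the table, 3 were at 0 in both libraries, Ptprc was at 0 and 1 counts, and the sum was 77.5 and 19.4 CPM, mostly Cd74 at 72 and 16 counts. Smooth muscle and pericyte markers had 4 of 9 tested lower, with sums of 1602 and 2060 CPM, and mesothelial markers had 9 counts in each library. Of 9 fibroblast markers, 3 were higher and 2 lower, with sums of 13395 and 20624 CPM, and Col1a1 had 2714 and 7925 counts. The part of these cells in the levels of Fos and Jun was not tested. In bulk RNA, fewer cells with a transcript and less of it per cell cannot be told apart.

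The saline library held 1080798 counts and the bleomycin library 1099840, and 1 count was worth 0.912 and 0.922 CPM. The labels do not name the enzyme, which in this kind of library cuts at CATG. The tag expected at the last CATG site, taken from annotated transcripts, began 91 to 517 bases from the 3′ end in the 7 genes and was shared with the last-site tag of no other gene. The sources used here do not say whether counting used strand, so a gene that overlaps on the other strand cannot be told apart. Such genes are annotated for Fosl1 (Ccdc85b, 2 counts in each library), Jun (Junos), Junb (Prdx2, 189 and 279 counts) and Jund (Gm11175).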

How the data were processed

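Total RNA of sorted lung fibroblasts was made into SOLiD SAGE libraries, per the labels' protocols. BWA 0.6.2 and the mm9 build appear in the submitters' processing notes without a role. The deposited values are whole-number counts, 1 per gene and library. How tags were assigned to genes, and whether counts were scaled before deposit, is not stated in the labels. Tests and intervals therefore assume raw counts. Without 1 blank line, 16040 genes were listed.

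Library sizes were adjusted by TMM, a trimmed mean of log ratios between libraries (edgeR 4.0.16, R 4.3.3), the factors being 1.01 (saline) and 0.986 (bleomycin). The quasi-likelihood test needs replicates and could not be fitted. For each of the 9369 genes that had 10 or more counts in all, the bleomycin count was compared with its share of the sum by a two-sided exact binomial test, and p was adjusted by the Benjamini-Hochberg method. Genes were called when the adjusted p was below 0.05 and the ratio, with 0.5 added to each count, was 2 or more in either direction. Printed ratios between the libraries are without that addition and have exact Clopper-Pearson 95% intervals. Log2 ratios include it. Changes in the counts of a gene or family per count of another have exact conditional 95% intervals of an odds ratio. A gene at 0 in a library was set against 3 counts. The test was tried on simulated data. Alternatives were total counts, DESeq2 1.42.0 size factors, other count minimums, prior counts and ratios, Bonferroni adjustment and the edgeR exact test with assumed coefficients of variation of 0.2 and 0.4.

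Promoter windows came from RefSeq (GRCm38.p6), and overlapping genes and tags from GENCODE on the same assembly. The 7 genes and 13 other lists (7 around AP-1 and 6 of cell type markers) were chosen with earlier results of these data known. The rule for named genes took all 7 Fos and Jun genes, up to 6 called genes of each list around AP-1 (largest log2 ratio first) and its 2 most abundant uncalled genes, the most abundant gene of each marker list, and the genes of most similar ratio. Some genes chosen by it are not reported here. Other genes in the text were named after their values were seen. Scripts ran in Python 3.11.15 with scipy 1.17.1, numpy 2.4.6, matplotlib 3.10.9 and pandas 2.3.3.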

Additional observations from a re-analysis of the deposited data

How the results depend on the processing

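All 7 Fos and Jun genes kept a negative log2 ratio with total counts, DESeq2 size factors and a prior count of 5. The other alternatives leave the ratio as it is and bear on calls alone. Fosl1 was not tested with a minimum of 50 counts. Fos (−1.18) and Junb (−1.08) lost their calls with a ratio of at least 3 and in the edgeR exact test with an assumed coefficient of variation of 0.2 or 0.4, while Fosb (−0.76), Jun (−0.91) and Jund (−0.88) gained one with no ratio required. The called members were thus 0 with a ratio of at least 3 or either assumed variation, and 5 with no ratio required, against 2. The ratio of the summed counts without the most abundant member was 0.635 for the Fos and 0.534 for the Jun family. Over all genes, 757 higher and 798 lower became 396 and 484 with a minimum of 50 counts, 443 and 445 at a required ratio of 3, and 1295 and 1317 with none required. They became 288 and 333 with Bonferroni adjustment, 274 and 333 with an assumed variation of 0.2, and 21 and 8 with 0.4. On the 7 lists around AP-1, 13 higher and 11 lower became 7 and 4 at a ratio of 3, 26 and 32 with no ratio required, 8 and 7 with a variation of 0.2, and 2 and 0 with 0.4. Of 508 values of 52 other genes taken by the naming rule, 444 kept direction and call, 46 lost and 18 gained a call. Changes in the numbers of calls follow from the stricter or looser limits. No paired analysis was possible because each group has 1 library, and none could be left out.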
